A study of Mus musculus with 4 samples.

Results

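Transcripts of 47 chromatin regulators and co-repressors linked to the retinoblastoma (Rb) family were examined in mouse haematopoietic stem cells (HSC), the rare marrow cells that renew the blood. The genes were taken from a fixed list, and each was represented by its brightest probe set among those annotated to 1 gene symbol. Values were obtained for 46 of the 47 genes, out of 18193 genes on the array, while Suv39h1 was not analysed here. The cells had been sorted with a KLS CD48- CD150+ gate (KLS denotes Kit+, lineage-, Sca-1+) 2 weeks after tamoxifen started recombination in adult mice. One group had the genotype label Rb -/- p130 -/- p107-/-, and the other, called wild type, had Rb +/+ p130 +/+ p107-/-. Both groups therefore lacked p107 by label and differed in Rb and p130. Each group comprised 2 arrays, each from a pool of 3 mice. The Cre driver is not given in the sources used here, and nothing states whether a mouse entered more than 1 pool, so p-values measure only the spread between these pools.

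Polycomb repressive complex 2 (PRC2) places methyl groups on lysine 27 of histone H3, and Polycomb repressive complex 1 (PRC1) ubiquitinates histone H2A and binds the methylated histone. DNA methyltransferases silence genes by methylating cytosine, and TET enzymes oxidise the methyl group. Rb family proteins repress E2F target genes in part by recruiting histone deacetylases, histone methyltransferases and SWI/SNF remodelling ATPases, and several chromatin genes are themselves known E2F targets. In HSC, Bmi1, Dnmt3a, Tet2, Asxl1 and Ezh1 are known for their roles in self-renewal.

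The values are log2 expression after RMA, the authors' method that corrects background, equalises the arrays' distributions and summarises the probes of a set. Array medians over all probe sets lay between 5.94 and 6.02. Of the HSC markers, 6 of 7 were measured, and Procr, Mecom and Hlf were at or above 10.03 in every pool, whereas Slamf1 (CD150) ranged from 8.81 to 9.90, Kit ranged from 9.94 to 11.09, and Tek reached at most 8.37. As a group difference the 6 markers had a median of -0.39, with 4 below 0 and 2 at a limma unadjusted p under 0.05, namely Procr (-0.85, unadjusted p = 0.003) and Mecom (-0.69, unadjusted p = 0.007), both at an adjusted p of 0.761. Kit (-0.59) was also lower in both deficient pools, and with a pool left out the marker median ran from -0.59 to -0.17. The part of these markers in the members' values was not tested. Neutrophil markers, of cells that the gate should remove, had a mean log2 level over 10 genes of 11.2 and 10.4 after Rb family loss and 9.57 and 10.2 in wild type, with 9 of 10 above 0 as a group difference. Genes of the G2/M phase had mean levels of 10.0 and 9.98 after Rb family loss, 10.1 in wild type pool 1 and 9.37 in wild type pool 2. Rbl2, which encodes p130, measured 7.82 and 8.21 after Rb family loss versus 8.94 and 8.75, and Rb1 9.82 and 9.72 versus 9.37 and 9.58. Rbl1, which encodes p107, measured 5.35 and 5.42 versus 5.92 and 6.77 (log2 difference -0.96, limma unadjusted p = 0.021, adjusted p = 0.761), or -0.53 without wild type pool 2, although both groups lack p107 by label. Its 3 dimmer probe sets differed by -0.00090 to 0.03. These values do not settle the labels, since the position of the probe sets relative to the deleted parts is not given in the sources used here. Because the samples are bulk RNA, a changed share of a cell type and a changed RNA amount per cell cannot be told apart.

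Chromatin regulators stood slightly lower after Rb family loss, but no difference passed the test. In limma, 0 of 46 members had a Benjamini-Hochberg adjusted p under 0.05, beside 0 of all 18193 genes (0%). At an unadjusted p under 0.05, limma placed 4 members lower (Cbx8, Phc3, Kdm5a and Arid1a), or 8.70%, beside 4.04% of all genes and 6.06% of genes at or above the median level. None was placed higher by its brightest probe set, beside 2.19% of all genes. Over all genes that was 399 higher and 735 lower, and with each array centred on its median over genes it was 601 higher and 530 lower, with 2 members lower (Cbx8 and Kdm5a) and 19 above 0. Differences were below 0 for 31 of the 46 members and above 0 for 15, or 32.6% against 49.2% of all genes, and the median log2 difference (deficient minus wild type) was -0.08 beside -0.0038 over all genes. Without wild type pool 1 the median was 0.04 and 25 members were above 0, and without deficient pool 1 the median was -0.0021. Leaving out a pool leaves 1 pool in its group. Counts at an unadjusted p from those fits are therefore listed only with the processing alternatives, and no conclusion is drawn from them. No member differed by 2-fold or more, beside 0.803% of all genes. These counts use the brightest probe set of each gene. A dimmer probe set was higher at a limma unadjusted p under 0.05 for Asxl1 (0.56), Hells (0.50), Sin3a (0.58), Dnmt1 (0.52) and Mtf2 (0.63). For Smarcb1 (-0.59) and Asxl2 (-0.59) a dimmer probe set was lower at that threshold. The share over all probe sets is not given here.

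Pools of the same group differed about as much as the groups did. The values of the groups did not overlap for 16 members (34.8%), 6 higher and 10 lower, beside 35.5% of all genes (17% higher, 18.5% lower). The group difference exceeded the gap between pools in both groups for 9 members (19.6%), beside 23.3% of all genes. Wild type pool 1 was the highest of the 4 pools for 23 of 46 members, beside 4732 of all 18193 genes, and deficient pool 1 was the lowest for 22 (47.8%), beside 27.3% of all genes. The neutrophil markers ran the other way, highest in deficient pool 1 and lowest in wild type pool 1, and their part in the members' values was not tested.

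**Figure D1:**
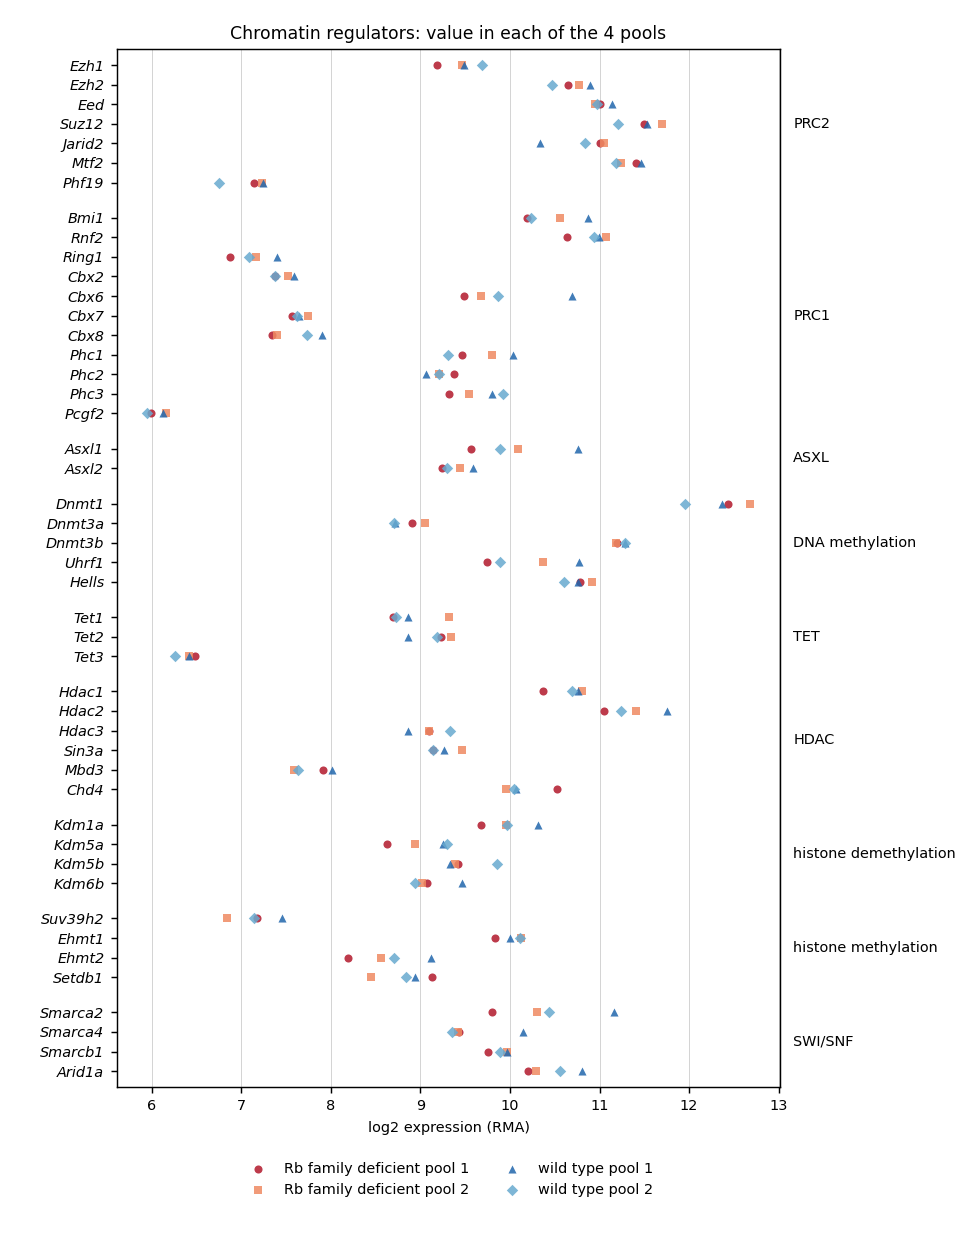
Log2 expression (RMA) of the 46 measured chromatin regulators in each pool, 1 row per gene, grouped by complex, with circles and squares for deficient pools 1 and 2 and triangles and diamonds for wild type pools 1 and 2. Wild type pool 1 is the rightmost point for 23 genes, and the points of the 2 groups interleave for most genes.

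**Figure D2:**
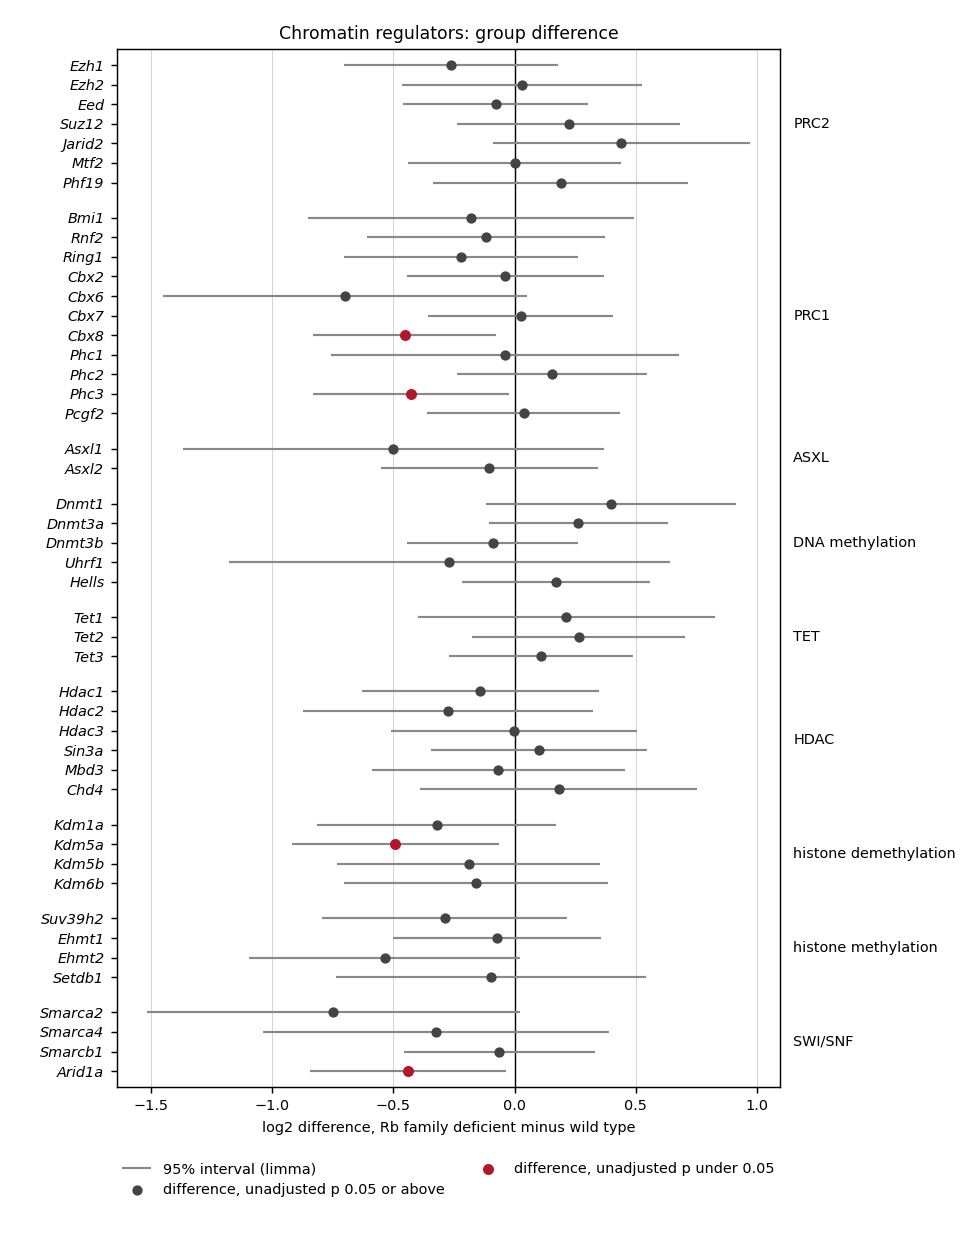
Log2 difference of each chromatin regulator, deficient minus wild type, with its 95% interval from limma (n = 2 pools per group). Only the intervals of Cbx8, Phc3, Kdm5a and Arid1a, in red, leave out 0, and none of the 46 passed after adjustment over all genes.

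Promoters were searched for strings of the E2F binding type, because E2F factors are the textbook partners of the Rb family. The strings were TTTCCCGC, TTTCGCGC, TTTGCCGC and TTTGGCGC on both strands, in RefSeq windows from 250 bases before to 50 bases after each start site (GRCm38.p6), and a gene counted once however many strings overlapped. Of the 47 listed members 42 had a window (all but Hdac1, Hdac3, Kdm5a, Kdm6b and Cbx2). Such a string was held by 8 of these (19.0%), beside 2.60% of 27025 genes with a window, or 2.26% of all 32851 windows. Among the 14452 tested genes with a window the share was 3.81%. It was 5.56% among other chromatin genes outside the list and 43.5% among S phase E2F targets. Of the measured members 7 of 41 held one: Ezh2, Suz12, Phf19, Dnmt1, Uhrf1, Hells and Arid1a. PRC2 (3 of 7) and the DNA methylation genes (3 of 5) held most of them. A match is a description of letters and not evidence of a bound site. The stretches that hold the string are shown for these 7 genes, 5′ to 3′ along the gene, with the string in capitals; the capitals read as the reverse complement of a searched string for Phf19 and Dnmt1.
Ezh2 (chr6:47595009-47595038, minus strand): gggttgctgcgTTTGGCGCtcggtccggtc
Suz12 (chr11:79992856-79992934, plus strand): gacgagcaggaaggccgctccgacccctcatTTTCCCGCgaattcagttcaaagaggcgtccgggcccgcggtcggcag
Phf19 (chr2:34914137-34914224, minus strand): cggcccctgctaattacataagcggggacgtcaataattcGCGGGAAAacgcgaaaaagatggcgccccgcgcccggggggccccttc
Dnmt1 (chr9:20952795-20952873, minus strand): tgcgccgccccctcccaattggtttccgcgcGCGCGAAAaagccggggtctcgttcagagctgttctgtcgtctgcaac
Uhrf1 (chr17:56304088-56304175, plus strand): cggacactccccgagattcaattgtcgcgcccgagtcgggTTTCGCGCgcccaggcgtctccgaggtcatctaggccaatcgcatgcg
Hells (chr19:38930888-38930975, plus strand): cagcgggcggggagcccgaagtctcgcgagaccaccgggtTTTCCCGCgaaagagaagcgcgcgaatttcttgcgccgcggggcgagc
Arid1a (chr4:133753993-133754080, minus strand): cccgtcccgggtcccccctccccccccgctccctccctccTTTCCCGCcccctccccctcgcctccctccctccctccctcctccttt

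The string began at position -62 from the start site in Hells, -185 in Uhrf1, -208 in Phf19, -219 in Suz12, -55 in Arid1a and 4 bases into the transcript in Ezh2. In Dnmt1 it occurred in 1 of 3 windows, at -219 and again at 34. The 7 measured members with a string had a median log2 difference of 0.17, with 5 of 7 above 0, and the 34 with a window and no string had a median of -0.09, with 10 above 0. Without wild type pool 2 the 7 had a median of -0.06, with 3 above 0, and the 34 a median of -0.16. Over all tested genes the median was -0.0096 for 550 genes with it and -0.0074 for 13902 without, with 48.4% above 0 in both. A second string, TTTGAA on both strands, is the core of the cell cycle homology region read by the MuvB complex. This string occurred in 8 of 42 members (19.0%), beside 20.2% of all genes with a window and 15.7% of tested genes with a window. Its holders were Suv39h2, Asxl1, Dnmt3b, Mtf2, Eed, Dnmt1, Suz12 and Cbx7, and their median difference was -0.04 beside 0.0089 over 2263 tested genes with it.

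PRC2 genes did not separate the groups. Of 7 members 4 were above 0, with a median of 0.03 and a range of -0.26 to 0.44, and 0 reached an unadjusted p under 0.05 in limma. Jarid2, a cofactor that guides PRC2 to its targets, had log2 values of 11.01 and 11.05 after Rb family loss and 10.34 and 10.84 in wild type. Both deficient pools were higher, 1.36-fold on average (log2 difference 0.44, SE 0.21, limma adjusted p = 0.809), and the wild type pools were further apart than the groups. Its other probe sets differed by 0.15 and -0.14, and without wild type pool 1 the difference was 0.19. Ezh1, the methyltransferase that predominates in quiescent cells, stood at 9.18 and 9.46 versus 9.49 and 9.68 (log2 difference -0.26, SE 0.17, limma adjusted p = 0.846), with deficient pool 2 just under wild type pool 1. Its other probe sets, all dimmer, differed by 0.01 to 0.22.

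Ezh2, the methyltransferase of dividing cells, stood at 10.65 and 10.77 after Rb family loss and 10.90 and 10.47 in wild type. The deficient pools fell between the wild type pools, and the 95% interval of the difference ran from -0.46 to 0.53 log2 units. Suz12, the subunit that holds PRC2 together, stood at 11.49 and 11.69 versus 11.53 and 11.21 (0.22, SE 0.18). Without wild type pool 2 the Suz12 difference was 0.06. All 6 Suz12 probe sets were above 0, by 0.12 to 0.58, but among the dimmer ones 1 turned to -0.03 without deficient pool 1 and another to -0.08 without deficient pool 2. Phf19, a reader of methylated lysine 36 that recruits PRC2, stood at 7.14 and 7.24 versus 7.24 and 6.75. Ezh2, Suz12, Phf19 and Mtf2 were lowest in wild type pool 2, as were 22 of 24 G2/M genes, whose part in these values was not tested. That pool was lowest for 28.3% of all members and 19.2% of all genes. The core subunit Eed had values of 11.01 and 10.95 versus 11.14 and 10.97, and the accessory factor Mtf2, at 11.41 and 11.24 versus 11.47 and 11.18, differed by -0.00023.

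PRC1 genes stood lower on balance, with 8 of 11 below 0 and a median of -0.12. Cbx8, a chromodomain subunit that reads methylated histone H3, stood at 7.34 and 7.40 after Rb family loss versus 7.90 and 7.74 in wild type. Both deficient pools were lower, 1.37-fold on average (log2 -0.45, SE 0.15, limma unadjusted p = 0.027, adjusted p = 0.761), and the gap between groups was wider than that within either. The second, much dimmer Cbx8 probe set differed by -0.05. Phc3, a Polyhomeotic subunit that helps PRC1 oligomerise, stood at 9.32 and 9.55 versus 9.80 and 9.92, 1.34-fold lower (log2 -0.43, SE 0.16, limma unadjusted p = 0.042, adjusted p = 0.785). Again the groups did not overlap.

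Cbx6, a chromodomain subunit related to Cbx8, had the largest PRC1 difference, 1.62-fold lower (log2 -0.70, SE 0.30, limma adjusted p = 0.799), with values of 9.49 and 9.68 versus 10.70 and 9.87. The deficient pools were below both wild type pools, but wild type pool 1 stood apart, and without it the difference was -0.28. Its second probe set differed by -0.59. Ring1, one of the paired E3 ligase genes of PRC1, stood at 6.88 and 7.17 versus 7.40 and 7.09, with overlap. The second ligase gene, Rnf2, differed by -0.12, and Bmi1, the PRC1 subunit long tied to HSC self-renewal, by -0.18 (SE 0.27), with values of 10.19 and 10.56 versus 10.87 and 10.23. Bmi1 was 0.14 without wild type pool 1 and -0.50 without wild type pool 2. The remaining members lay between -0.04 and 0.15, namely Cbx2, Cbx7, Phc1, Phc2 and Pcgf2, and Phc2 was the only one of these whose deficient pools were both higher, by a narrow margin. Without wild type pool 1 the PRC1 median was 0.04, and without deficient pool 1 it was also 0.04.

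The ASXL genes, which encode the partners of the H2A deubiquitinase Bap1, were both highest in wild type pool 1 and lowest in deficient pool 1. Asxl1 stood at 9.56 and 10.09 after Rb family loss versus 10.76 and 9.89 in wild type, a log2 difference of -0.50 (SE 0.34, limma adjusted p = 0.851). Deficient pool 2 was above wild type pool 2, and without wild type pool 1 the difference was -0.06. A second Asxl1 probe set, only slightly dimmer, differed by 0.56 (SE 0.16), so the probe sets of this gene disagreed in direction. Asxl2 differed by -0.10 (SE 0.18), with values of 9.24 and 9.44 versus 9.59 and 9.30, and its 4 dimmer probe sets ran from -0.59 to 0.25.

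DNA methylation genes lay on both sides of 0, with 3 of 5 above 0 and a median of 0.17. Dnmt1, the maintenance methyltransferase, stood at 12.44 and 12.68 after Rb family loss and 12.37 and 11.95 in wild type. Both deficient pools were higher, 1.32-fold on average (log2 0.40, SE 0.20, limma adjusted p = 0.813), and deficient pool 1 exceeded wild type pool 1 only slightly. A second Dnmt1 probe set differed by 0.52 and the third by -0.15. Without wild type pool 2 the Dnmt1 difference was 0.19, and without wild type pool 1 it was 0.61. Dnmt3a, the de novo methyltransferase that limits HSC self-renewal, stood at 8.91 and 9.05 versus 8.72 and 8.71 (log2 0.26, SE 0.15, limma adjusted p = 0.825). The groups did not overlap in this probe set, yet 3 of the 4 others differed by -0.37 to -0.17, and the mean over probe sets was -0.08.

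Dnmt3b, the second de novo enzyme, stood at 11.20 and 11.19 versus 11.28 and 11.28, a difference of -0.09 (SE 0.14), with pools of each group nearly equal. Its other probe set differed by -0.40. Hells, a remodelling ATPase needed for DNA methylation, stood at 10.78 and 10.92 versus 10.76 and 10.60 (log2 0.17, SE 0.15). A second Hells probe set differed by 0.50 and the third, the dimmest, by -0.02. Uhrf1, which brings Dnmt1 to newly replicated DNA, had the widest spread of the group, at 9.75 and 10.37 after Rb family loss versus 10.77 and 9.89 in wild type. Its difference of -0.27 (SE 0.36) became 0.17 without wild type pool 1 and -0.71 without wild type pool 2. Uhrf1 and Dnmt1, which act together, were not ordered alike across the pools by their brightest probe sets. The Dnmt1 probe set that differed by -0.15 did have the pool order of Uhrf1, at 10.34 and 11.08 versus 11.18 and 10.53. By the brightest probe sets, Dnmt1, Hells and Dnmt3a were lowest in wild type pool 2. As a group, S phase E2F targets were above 0 for 21 of 26 genes with a median of 0.18. Of the 26, 17 were also lowest in wild type pool 2, beside 19.2% of all genes.

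**Figure D3:**
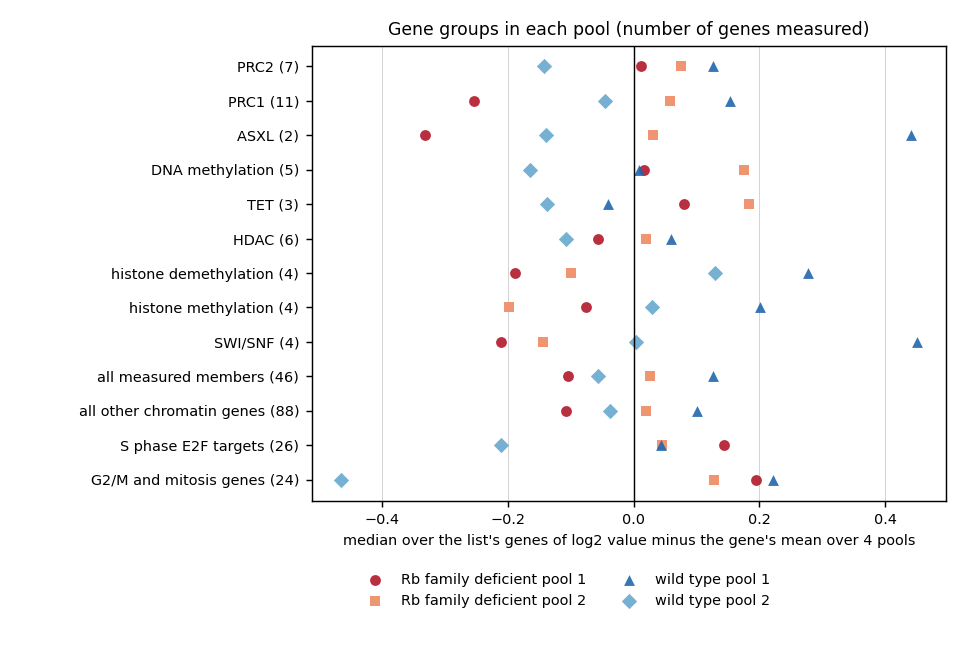
Median over each gene group of the log2 value minus the gene's mean over the 4 pools, 1 point per pool, with the number of genes measured in brackets. The chromatin groups other than DNA methylation and TET are highest in wild type pool 1, from 0.06 for HDAC to 0.45 for SWI/SNF, whereas G2/M genes are set apart by wild type pool 2 (-0.47).

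All 3 TET genes, which encode the methylcytosine dioxygenases, were above 0, with a median of 0.21. Tet2 stood at 9.24 and 9.34 after Rb family loss versus 8.86 and 9.18 in wild type (log2 0.26, SE 0.17, limma adjusted p = 0.846). The deficient pools were higher without overlap, by a margin smaller than the gap between the wild type pools, and the difference was 0.10 without wild type pool 1. Tet1 stood at 8.69 and 9.32 versus 8.86 and 8.73 (0.21, SE 0.24). Only deficient pool 2 was above the wild type pools, and the difference was -0.10 without it. The brightest Tet1 probe set without an _s_at name differed by -0.49, and the others, both dimmer, by 0.59 and 0.16. Tet3, at 6.49 and 6.41 versus 6.42 and 6.26, differed by 0.11 (SE 0.15).

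The histone deacetylase co-repressors, through which Rb is known to repress, had differences from -0.27 to 0.18. Hdac1 stood at 10.37 and 10.80 after Rb family loss versus 10.76 and 10.69 in wild type, a difference of -0.14 (SE 0.19). Deficient pool 1 alone was low, and without it the difference was 0.07. Hdac2, the paralog of Hdac1, stood at 11.05 and 11.40 versus 11.76 and 11.24 (-0.27, SE 0.24, 95% interval -0.87 to 0.32). The groups overlapped, wild type pool 1 was the highest pool in all 3 Hdac2 probe sets, and these differed by -0.47 to -0.26. Without that pool the Hdac2 difference was -0.02, and the other probe sets gave -0.10 and 0.05. Hdac3, the deacetylase of the NCoR complex, stood at 9.09 in both deficient pools, between the wild type pools at 8.86 and 9.33.

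The scaffold gene Sin3a stood at 9.14 and 9.47 versus 9.27 and 9.14 (0.10, SE 0.18), and its 3 probe sets ran from -0.24 to 0.58. In the NuRD complex, which couples deacetylation to nucleosome remodelling, the ATPase gene Chd4 stood at 10.53 and 9.95 versus 10.07 and 10.05. Deficient pool 1 was high and deficient pool 2 low, and the difference of 0.18 (SE 0.23) became -0.11 without the first. The NuRD subunit Mbd3 stood at 7.92 and 7.59 versus 8.01 and 7.63, so that pools with the same number were close. None of the 6 genes had groups that did not overlap, and the group median was -0.03, or 0.05 without wild type pool 1.

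Histone demethylase genes were below 0 in 4 of 4 cases, with a median of -0.26. Kdm5a, first identified as an Rb-binding protein and a demethylase of lysine 4 of histone H3, stood at 8.63 and 8.94 after Rb family loss versus 9.25 and 9.30 in wild type. It was 1.41-fold lower without overlap (log2 -0.49, SE 0.17, limma unadjusted p = 0.031, adjusted p = 0.770), and with a pool left out the difference ran from -0.64 to -0.34. That value rests on 1 probe set. The 5 others, all dimmer, differed by -0.08 to 0.29, and the mean over the 6 was -0.05. Kdm1a (LSD1), a demethylase in the CoREST co-repressor, stood at 9.68 and 9.96 versus 10.31 and 9.97 (log2 -0.32, SE 0.20, limma adjusted p = 0.842). Deficient pool 2 lay barely under wild type pool 2, the difference was -0.15 without wild type pool 1, and the second probe set differed by -0.62. Kdm5b, a paralog of Kdm5a, stood at 9.42 and 9.39 versus 9.33 and 9.86, and Kdm6b, which removes the PRC2 mark, at 9.07 and 9.02 versus 9.47 and 8.94. In each case 1 wild type pool was high and the other below the deficient pools, and both differences turned sign without it (0.07 and 0.10).

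Histone lysine 9 methyltransferase genes were also all below 0, 4 of 4 with a median of -0.19. Ehmt2 (G9a) stood at 8.19 and 8.56 after Rb family loss versus 9.12 and 8.71 in wild type, 1.45-fold lower without overlap (log2 -0.53, SE 0.22, limma unadjusted p = 0.057, adjusted p = 0.796). The difference was -0.33 without wild type pool 1, and the second, dim probe set differed by 0.11. Suv39h2, of the same enzyme family as the Rb-recruited Suv39h1, stood at 7.18 and 6.84 versus 7.45 and 7.14 (-0.29, SE 0.20), and deficient pool 1 was above wild type pool 2. Its other probe sets differed by 0.20 and -0.01. Ehmt1, the partner of Ehmt2, stood at 9.84 and 10.13 versus 10.00 and 10.11 (-0.07, SE 0.17). Setdb1, which silences retroelements, stood at 9.13 and 8.45 versus 8.94 and 8.84, with the deficient pools on either side of the wild type pools.

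SWI/SNF genes had the lowest median of all groups, -0.38, with 4 of 4 below 0. Smarca2 (Brm), an ATPase that binds Rb, stood at 9.80 and 10.30 after Rb family loss versus 11.16 and 10.44 in wild type. This was the largest difference of the 46, 1.68-fold lower without overlap (log2 -0.75, SE 0.30, limma unadjusted p = 0.055, adjusted p = 0.796), but deficient pool 2 and wild type pool 2 were close. Without wild type pool 1 the Smarca2 difference was -0.39, and its second probe set differed by -0.08. Smarca4 (Brg1), the alternative ATPase, stood at 9.43 and 9.42 versus 10.15 and 9.35. Only wild type pool 1 was apart, and without it the difference of -0.32 (SE 0.28) became 0.07. The second Smarca4 probe set, of similar brightness, differed by 0.21.

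Arid1a, the DNA-binding subunit that defines the BAF form of SWI/SNF, stood at 10.20 and 10.29 versus 10.80 and 10.56. It was 1.36-fold lower without overlap (log2 -0.44, SE 0.16, limma unadjusted p = 0.038, adjusted p = 0.782), and without a pool the difference stayed between -0.56 and -0.32. The second, dimmer Arid1a probe set differed by -0.48 (SE 0.48), but both deficient pools (6.97 and 6.87) lay above wild type pool 2 (6.65), and without wild type pool 1, at 8.14, its difference was 0.27. Smarcb1 (Snf5), a core subunit, stood at 9.75 and 9.97 versus 9.96 and 9.89 (-0.06, SE 0.16), while another of its probe sets differed by -0.59 (SE 0.16). The SWI/SNF median was -0.17 without wild type pool 1 and -0.64 without wild type pool 2.

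**Figure D4:**
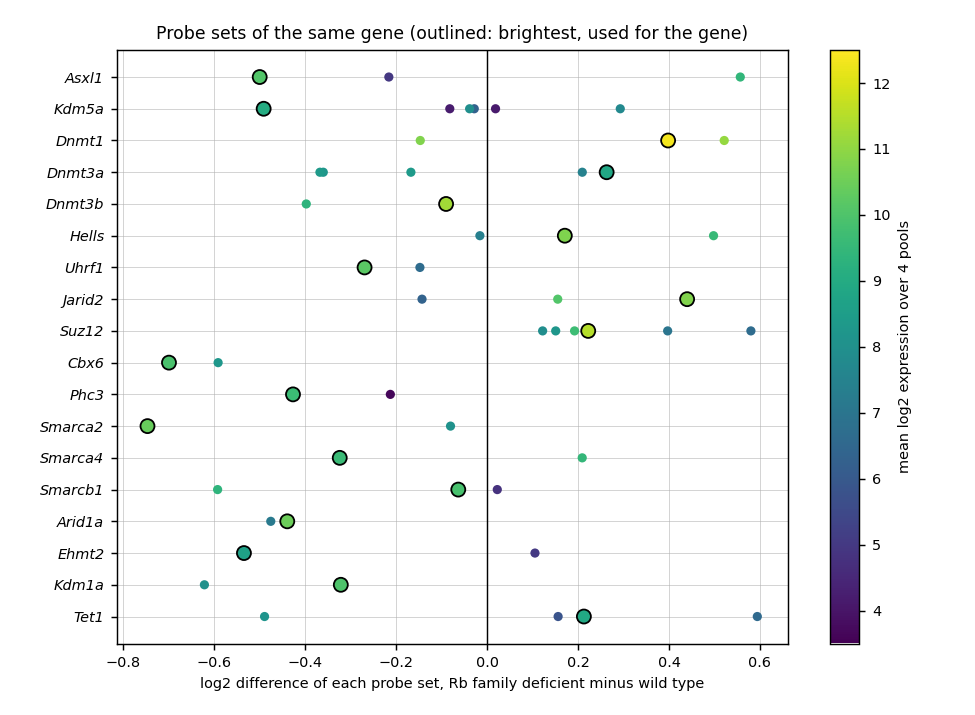
Log2 difference of every probe set of 18 chromatin regulators, deficient minus wild type, coloured by mean log2 expression, with the brightest probe set of each gene outlined. Suz12, Cbx6 and Kdm1a are among the genes whose points all lie on one side of 0, whereas Asxl1, Kdm5a, Dnmt3a, Smarca4 and Tet1 have points on both sides of 0.

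Agreement between probe sets was limited. Of the 46 genes 8 had 1 probe set, 15 had several that all differed in the same direction, and 23 had probe sets of both signs. With any pool left out, 5 of the 15 kept that direction in every probe set (Cbx6, Dnmt3b, Kdm1a, Phc3 and Tet2). Counting only probe sets at or above the genes' median level, 26 genes had several, and 15 of these had 1 direction. In that count Cbx6, Dnmt3b, Kdm1a and Tet2 kept it with any pool left out. The 4 genes at an unadjusted p under 0.05 thus rest on 1 probe set each: the second probe sets of Phc3 and Cbx8 were dim (means of 3.64 and 4.50), that of Arid1a turned sign without wild type pool 1, and those of Kdm5a had both signs.

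The other chromatin genes, 88 measured of 96 listed, resembled the members in their counts. Of the 88, 30 were above 0, the median was -0.08, and limma called 0 after adjustment. At an unadjusted p under 0.05 limma placed 9 lower (10.2%, beside 4.04% of all genes) and 0 higher. The class II deacetylase gene Hdac9 had the smallest p, with 7.36 and 7.27 after Rb family loss versus 8.14 and 8.10 in wild type (log2 -0.81, SE 0.14, limma unadjusted p = 0.002, adjusted p = 0.761). Pools of each group were close, and the average over its probe sets was -0.39. Hdac11 stood at 7.01 and 7.17 versus 7.73 and 7.64 (-0.60, SE 0.15), again without overlap.

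Kdm7a, a demethylase of lysines 9 and 27 of histone H3, differed by -0.79 (SE 0.21), or -0.31 averaged over its probe sets, and the lysine 9 demethylase gene Kdm4c by -0.51 (SE 0.20), or -0.28 without deficient pool 1. The PRC1-associated gene Scmh1 differed by -0.62 (SE 0.21), or 0.87 by its brightest probe set without an _x_at, _s_at or _a_at name. Foxk1, whose product binds Bap1, differed by -0.97 (SE 0.35), with wild type pool 1 at 9.31 and the other 3 pools between 7.67 and 8.34. Averaged over its probe sets Foxk1 differed by -0.31. Smarcd3 (-0.41, SE 0.14) and Brd7 (-0.38, SE 0.15, or -0.12 averaged over its probe sets) were the SWI/SNF genes with the lowest p. On the other side, the heterochromatin protein gene Cbx5 stood at 10.74 and 10.45 versus 10.21 and 10.15 (0.41, SE 0.17), with -0.04 for the mean of its probe sets. Rbbp4, a histone chaperone shared by PRC2, NuRD and MuvB, differed by 0.12 (SE 0.16). Its brightest probe set without an _x_at, _s_at or _a_at name gave 0.62, and the mean of its probe sets 0.04. The rule also named Pcgf3 (-0.38), Uhrf2 (-0.39), Dnmt3l (-0.21), Atf7ip (-0.35), Bap1 (-0.07) and Phf1 (-0.08), none at an unadjusted p under 0.05.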

How the data were processed

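Gene expression was measured on Affymetrix mouse arrays, 1 per pool, with 2 pools per group. The deposited values are log2 expression, made by the authors with RMA per the submitters' processing notes, which also name limma; their versions are not given. RMA forces nearly equal distributions on the arrays, so a global change would not show, and it compresses differences of dim probe sets. The table held 45101 probe sets, and 34945 had 1 gene symbol, updated by Entrez ID through a RefSeq table (GRCm38.p6) for 34741. No filter on dim probe sets was used. The 18193 genes were fitted together in limma 3.58.1 (R 4.3.3; lmFit, eBayes, no block), with Benjamini-Hochberg adjustment and a threshold of 0.05. SE is limma's moderated standard error, and secondary probe sets were fitted together as probe sets. The fit was tested on simulated data. The number of arrays limits precision.

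Groups came from sample titles. The members and lists were chosen with earlier results of these data known. Pool values are given for up to 4 members per complex with the smallest p, for Hdac1, Hdac2, Kdm5a, Smarca2, Smarca4, Dnmt1, Uhrf1, Hells, Ezh2 and Eed, and for others where they inform; other chromatin genes are the 2 with the smallest p per class. A planned protein search was not run. Alternatives covered probe set choice, centring, a filter, a block, a variance trend and each pool left out.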

Additional observations from a re-analysis of the deposited data

How the results depend on the processing

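No alternative brought a gene past the adjusted threshold in limma, and 19 of the 46 members kept their sign under every alternative that gave them a value, among them Cbx6, Cbx8, Phc3, Kdm5a, Ehmt2, Smarca2, Arid1a, Dnmt1, Suz12 and Hells. Members lower at an unadjusted p under 0.05 numbered 4 (8.70%, beside 4.04% of all genes), but 0 when each gene was averaged over its probe sets. Median centring gave 2 (Cbx8 and Kdm5a). Keeping only genes at or above the median level gave 2 (Kdm5a and Smarca2), and a variance trend gave 1 (Smarca2). Smarca2 was not among the 4. The counts over all genes under averaging and under the variance trend are not given here, so these member counts have no share to be read against. Over all genes, median centring gave 601 higher, and the filter on level gave 408 lower and 176 higher. With pools of the same number as a replicate block, 1 member was lower (Kdm5a) and 457 genes were lower. The numbers only name the pools. Their deviations correlated at -0.19, and a crossed replicate block, chosen after seeing the data, gave 7 members lower, 1 higher and 1151 genes lower.

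With 1 pool or another left out, the difference turned sign or moved by over 1.5 times for 40 of the 46 members, all but Cbx8, Phc3, Dnmt3a, Dnmt3b, Kdm5a and Arid1a. With a pool left out, the members' median ran from -0.16 to 0.041, the members above 0 from 13.00 to 25.00, those lower at an unadjusted p under 0.05 from 0 to 7 and those higher from 0 to 1, and all genes lower from 317 to 1082 and higher from 244 to 689. Each such fit has 1 pool in a group, so no conclusion is drawn from its counts at an unadjusted p. Genes that changed sign with a pool left out were Bmi1 from -0.50 to 0.14, Rnf2 from -0.34 to 0.10, Cbx2 from -0.14 to 0.068, Phc1 from -0.41 to 0.32, Uhrf1 from -0.71 to 0.17, Hdac1 from -0.36 to 0.075, Chd4 from -0.11 to 0.47, Ehmt1 from -0.22 to 0.072 and Smarcb1 from -0.17 to 0.044. Likewise Bap1 ran from -0.24 to 0.11, Phf1 from -0.26 to 0.11, Ezh2 from -0.18 to 0.25, Mtf2 from -0.14 to 0.14, Cbx7 from -0.066 to 0.12, Pcgf2 from -0.049 to 0.12, Tet1 from -0.10 to 0.53, Sin3a from -0.063 to 0.26, Mbd3 from -0.26 to 0.12 and Setdb1 from -0.44 to 0.24. Eed ran from -0.17 to 0.0096, Asxl2 from -0.25 to 0.041, Kdm6b from -0.42 to 0.10, Smarca4 from -0.72 to 0.074, Phf19 from -0.055 to 0.43, Hdac3 from -0.24 to 0.23 and Kdm5b from -0.45 to 0.075.

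Other settings also turned signs, and the cause was not tested. When names free of _x_at, _s_at and _a_at were preferred, the differences were Ezh1 0.15, Jarid2 -0.14, Tet1 -0.49, Sin3a -0.24, Setdb1 0.49, Smarcb1 0.022 and Scmh1 0.87. Averaged over probe sets they were Ezh1 0.028, Eed 0.10, Mtf2 0.087, Rnf2 0.044, Cbx7 -0.029, Pcgf2 -0.027, Dnmt3a -0.085, Chd4 -0.00055, Kdm6b 0.077, Setdb1 0.11, Cbx5 -0.042, Scmh1 0.036 and Pcgf3 0.085. Median centring moved every difference up by the same amount, as in Mtf2 from -0.00023 to 0.054. The members' median without centring was -0.08, between Dnmt3b (-0.09) and Eed (-0.08). With centring Dnmt3b was -0.04 and Eed -0.02, and the members' median lay between them, nearer to 0. Signs also turned with centring for Cbx2 (0.017), Phc1 (0.013) and Hdac3 (0.053). Genes below the median level have no value under the filter. Detection calls were not used here, so dim probe sets cannot be told from background.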

Other observations

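The Y-linked histone demethylase genes, named after their values were seen, stood lower after Rb family loss. Kdm5d had log2 values of 6.12 and 7.86 after Rb family loss and 8.26 and 8.37 in wild type (log2 difference -1.33, SE 0.56, limma adjusted p = 0.799), and Uty 5.11 and 6.48 versus 6.90 and 6.68 (-0.99, SE 0.45, limma adjusted p = 0.802). Both were lowest in deficient pool 1. The pattern was not limited to demethylase genes. Eif2s3y, another Y-linked gene, stood at 8.50 and 9.64 versus 9.93 and 10.29 (-1.04, SE 0.40, limma adjusted p = 0.787). The X-linked counterparts of Kdm5d and Uty differed little, Kdm5c by -0.08 (SE 0.15) and Kdm6a by 0.16 (SE 0.16). Xist was high in every pool, from 12.7 to 13.3. None of the 46 measured members is one of these genes, and the part of the pools' sex makeup in the members' values was not tested.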
